A study of Mus musculus with 12 samples.

Results

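Clec4f, Cd5l, Vsig4, Cd163, Marco and Timd4 are 6 genes whose expression marks the resident macrophages of the mouse liver, the Kupffer cells. They were followed by taking every gene probe of the array that carried 1 of the 6 names. Each name was carried by 1 probe of 60 bases, so the set holds 6 probes for 6 of the 28786 gene names on the array, and all 6 probes passed the filter on dim signals that left 15381 gene names for testing.

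RNA of whole liver was compared between mice lacking Abcb4, written Abcb4(-/-), and wild-type Abcb4(+/+) mice. Abcb4 encodes the phospholipid transporter of the canalicular membrane, and its loss leaves bile without phospholipid, which damages the bile ducts. The knockout mice had been fed cholic acid (CA), a primary bile acid, or ursodeoxycholic acid (UDCA), a hydrophilic bile acid used as a drug in cholestasis, for 9 weeks, in order to make the liver disease more or less active. The labels give no dose, sex, age, strain or diet of the wild-type mice, so a change in a knockout group holds the genotype and the feeding together. Each diet has 5 knockout livers on 6 two-colour arrays, since 1 liver of each diet was hybridised again with the dyes exchanged. The knockout liver was labelled with Cy5 on arrays 1 to 3 and with Cy3 on arrays 4 to 6 of each diet. Which array repeats a liver is not stated, and the highest correlation between deviations of arrays of opposite dye was 0.109 for CA and 0.093 for UDCA. All 6 arrays were therefore kept, and standard errors and p-values rest on 6 arrays from 5 livers.

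Kupffer cells line the liver sinusoids, where they take microbes, complement-coated particles, haemoglobin and dying cells out of the portal blood. Their identity is known to depend on signals from the neighbouring sinusoidal endothelium, stellate cells and hepatocytes, among them Notch ligands and BMP, and on the transcription factors LXR-alpha, encoded by Nr1h3, ID3 and SPIC. When the liver is injured, monocytes enter it and become macrophages that at first lack many of the resident genes. In whole tissue, fewer cells of a type and less RNA per cell cannot be told apart.

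The promoters of 4 members are shown. Clec4f, Cd5l and Vsig4 had array ratios that moved together within a diet, and Cd163 went least with them. Marco (Pearson r of 0.36 to 0.47 with them) and Timd4 (0.47 to 0.72) lay between, and their promoters are not shown. Each promoter shown is 300 bases, from 250 before to 50 after the gene's start, from RefSeq on GRCm38.p6. Capitals mark 5 motifs searched on both strands, which are GAGGAA (the core bound by PU.1), GGAA followed after any 2 bases by GAAA (an ETS-IRF composite), TGGGAA (RBPJ, the factor of Notch signalling), AGGTCA (a half-site of nuclear receptors such as LXR) and TGCTGA (a MAF half-site).
Clec4f, chr6:83656067-83656366, minus strand: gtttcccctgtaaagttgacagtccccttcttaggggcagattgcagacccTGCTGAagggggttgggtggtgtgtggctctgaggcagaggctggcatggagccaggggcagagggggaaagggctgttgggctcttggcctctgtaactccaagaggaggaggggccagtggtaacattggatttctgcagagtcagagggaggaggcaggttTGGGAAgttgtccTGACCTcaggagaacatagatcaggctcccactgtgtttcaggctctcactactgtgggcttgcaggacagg
Cd5l, chr3:87357631-87357930, plus strand: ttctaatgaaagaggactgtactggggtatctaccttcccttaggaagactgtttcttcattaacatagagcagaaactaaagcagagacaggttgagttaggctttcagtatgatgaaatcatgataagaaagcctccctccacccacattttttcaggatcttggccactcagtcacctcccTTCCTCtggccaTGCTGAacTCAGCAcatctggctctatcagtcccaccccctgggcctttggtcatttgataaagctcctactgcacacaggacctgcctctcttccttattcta
Vsig4, chrX:96293389-96293688, minus strand: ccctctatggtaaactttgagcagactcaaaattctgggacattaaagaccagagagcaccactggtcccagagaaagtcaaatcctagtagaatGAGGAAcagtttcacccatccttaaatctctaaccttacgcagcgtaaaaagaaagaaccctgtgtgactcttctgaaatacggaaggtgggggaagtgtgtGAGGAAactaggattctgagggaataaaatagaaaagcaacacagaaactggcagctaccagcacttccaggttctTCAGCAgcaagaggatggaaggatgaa
Cd163, chr6:124304401-124304700, plus strand: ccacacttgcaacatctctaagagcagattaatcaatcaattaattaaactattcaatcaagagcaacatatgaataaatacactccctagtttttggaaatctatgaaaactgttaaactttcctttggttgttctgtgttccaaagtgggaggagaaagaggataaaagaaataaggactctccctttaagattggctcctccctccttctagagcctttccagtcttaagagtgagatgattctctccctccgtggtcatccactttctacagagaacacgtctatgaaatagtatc

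None of these 5 motifs was found in the Cd163 window. Each of them alone is found in 28.3% of promoters or fewer, so most promoters lack any given 1. The share that lacks all 5 was not counted, so their absence is not read as a trait of Cd163. The Clec4f window held TGGGAA at position -35 and AGGTCA at -22, counted from the start of the gene, and TGCTGA at -199. GAGGAA was found in 3 of the 6 member promoters (Cd5l, Vsig4 and Marco), against 28.3% of 32851 promoters of this length. TGGGAA stood in 2 of 6 (Clec4f and Marco), against 25.6%, and AGGTCA in 2 of 6 (Clec4f and Timd4), against 16.3%. TGCTGA stood in 4 of 6, against 19.5%, and the E-box CANNTG, which is not capitalised, in 4 of 6, against 72.3%. The ETS-IRF composite was found in Timd4 alone, at position -72, and 2.72% of promoters hold it. Its first bases can overlap GAGGAA and TGGGAA, and did not in Timd4. These matches describe letters in a window and show no binding.

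The array measured the members through probes placed by its design on the mm7 build. The annotation of that build was not used here, so exons are not given. The Clec4f probe lies at chr6:83670672-83670730 on the minus strand and the Vsig4 probe at chrX:91575173-91575232 on the minus strand. They are shown because Clec4f had the largest fall and Vsig4 changed in opposite directions under the 2 diets.
Clec4f probe: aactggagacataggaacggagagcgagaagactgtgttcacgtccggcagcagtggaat
Vsig4 probe: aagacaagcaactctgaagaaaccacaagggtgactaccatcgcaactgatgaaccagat

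The other probes lie at chr3:87483753-87483812 on the plus strand for Cd5l, chr6:124312766-124312825 on the plus strand for Cd163, chr1:120342087-120342147 on the minus strand for Marco and chr11:46800424-46800483 on the plus strand for Timd4.

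The median intensity of an array was between 247 and 1194 in the green channel and between 58.4 and 148 in the red, and 31.6 to 68.4% of gene spots were well above background, so dim probes carry less precise ratios. The 2 probes of the targeted gene Abcb4 were lower in the knockout livers under both diets in the limma fit. One fell by 2.73 ± 0.21 (SE) log2 units with CA (adjusted p = 4.39e-08) and by 1.77 ± 0.21 with UDCA (1.84e-05) and was lower on every array. The other had changes of -0.73 ± 0.21 (0.00701) and -1.28 ± 0.21 (0.000323) and was above wild type on at least 1 array of each diet. The labels do not say whether the probes lie in the deleted stretch. Arrays 3 and 4 of the CA group, which share slide 2, stand apart. On them the median ratio of 4 measured pancreatic enzyme genes, a list added after seeing the data, was -3.65 and -3.26, against -0.73 to -0.13 on the other CA arrays and -0.37 to 0.92 with UDCA. Amy2, the pancreatic amylase, is among them. The sum of the 4 genes' log2 intensities reached 54.95 in wild-type livers of the CA arrays and 40.9 in the knockout livers. Changes without CA arrays 3 and 4 are therefore given for each member but Cd163, for Marco and Timd4 with the CA change alone. The part of the pancreatic difference in the members' values was not tested. UDCA array 6, alone on slide 5, also stood apart. Its mean ratio for cholangiocyte markers was 2.50, against 0.59 to 1.42 on the other UDCA arrays. For recruited macrophage genes it was 2.37, against 1.11 to 1.73. Of the UDCA arrays it was the lowest for Marco (-1.52) and Cd163 (-2.61) but for no other member.

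In CA-fed knockout livers all 6 members were lower than in wild type, by 1.43-fold (Timd4) to 10.3-fold (Clec4f). In UDCA-fed knockout livers the members parted: Cd163 and Marco were lower, Cd5l and Vsig4 were higher, and Clec4f and Timd4 did not pass the test. Over all 15381 genes, 22.4% were called lower and 37.8% higher with CA, and 8.78% lower and 17.2% higher with UDCA, at an adjusted p under 0.05. The median change of all genes was 0.10 with CA and 0.04 with UDCA on the log2 scale, and that of the 6 members was -2.10 and -0.13. With median centring in place of loess, 4939 probes were called higher and 1203 lower with CA, against 7418 and 5505 with loess. With UDCA the same choice gave 1866 higher and 110 lower, against 3270 and 1823. The member count for CA stayed at 6 under it, and the UDCA calls of Cd5l, Vsig4 and Marco were lost.

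**Figure D1:**
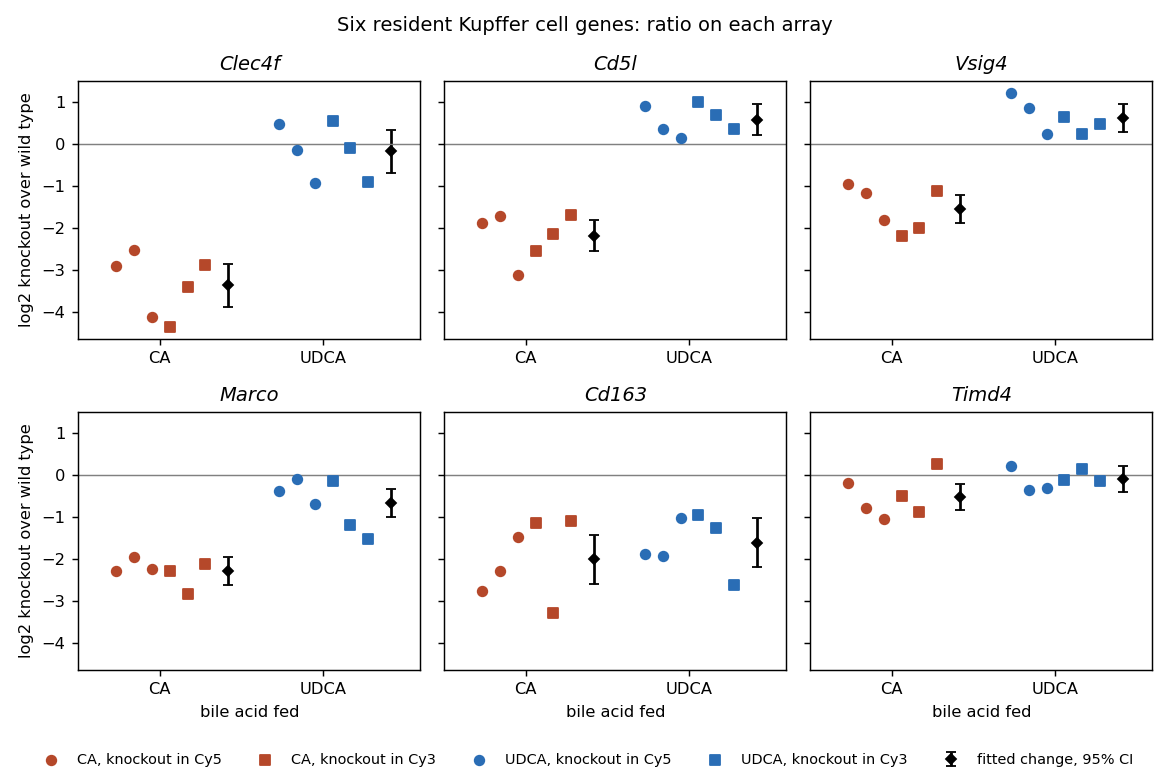
Log2 ratio of knockout over wild-type liver on each of 6 arrays per diet for the 6 members, with circles for arrays with the knockout in Cy5, squares for the knockout in Cy3, and diamonds for the fitted change with its 95% confidence interval. CA arrays lie below all UDCA arrays for Clec4f, Cd5l, Vsig4 and Marco, and overlap them for Cd163 and Timd4.

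Clec4f, a galactose-binding C-type lectin found in the mouse on Kupffer cells, had the largest change. On the CA arrays its log2 ratio of knockout over wild type was -4.36 at the lowest, -3.16 at the median and -2.53 at the highest. On the UDCA arrays it ran from -0.93 through -0.12 to 0.55. The 2 sets of arrays did not overlap, and on UDCA arrays the sign was mixed, with 2 above and 4 below 0. The fitted change was -3.37 ± 0.24 (SE, 6 arrays) with CA, with an adjusted p of 2.15e-08 in limma. With UDCA it was -0.18 ± 0.24 (adjusted p = 0.658), with a 95% confidence interval from -0.69 to 0.34, so changes beyond these bounds are outside the interval while smaller ones could not be detected. The difference between the diets, CA minus UDCA, was -3.19 ± 0.34 (adjusted p = 3.60e-05). Without CA arrays 3 and 4 the CA change was -2.93 and the difference -2.76, both still called.

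The intensities show which channel moved. The knockout level of Clec4f was 8.09 to 10.03 on the log2 scale with CA and 11.10 to 12.69 with UDCA, with no overlap. Its wild-type level was 11.18 to 12.69 on the CA arrays and 11.68 to 12.61 on the UDCA arrays. The mean knockout level thus differed by -3.07 between the diets while the mean wild-type level differed by 0.13. For the other members the mean wild-type level differed by -0.68 (Marco), -0.58 (Cd163), -0.41 (Timd4), -0.27 (Vsig4) and 0.10 (Cd5l). These levels come from single channels of different arrays and carry array and dye effects that the ratios do not.

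Vsig4, the complement receptor CRIg that binds C3b-coated particles, fell with CA and rose with UDCA. Its CA ratios had a lowest value of -2.19, a median of -1.49 and a highest of -0.96. Its UDCA ratios were 0.24, 0.56 and 1.22 in the same order. All 6 CA arrays were below 0, as for 15.2% of genes, and all 6 UDCA arrays above it, as for 18.6%. The fit gave -1.54 ± 0.15 with CA (limma, adjusted p = 6.90e-07), 0.62 ± 0.15 with UDCA (0.00878) and -2.16 ± 0.22 for the difference (2.59e-05). With the slide as a fixed block the UDCA change was 0.38 and no longer called (adjusted p = 0.127). Leaving out CA arrays 3 and 4 gave -1.32 with CA and -1.93 for the difference, both called.

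Cd5l encodes a secreted scavenger protein of macrophages, also named AIM, that inhibits their apoptosis. It moved as Vsig4 did. Its CA ratios went from -3.13 through a median of -2.02 to -1.69, and its UDCA ratios from 0.14 through 0.53 to 1.01. No CA array came near a UDCA array, and within each diet all 6 arrays had 1 sign. The fitted change was -2.19 ± 0.17 with CA (limma, adjusted p = 5.06e-08), 0.58 ± 0.17 with UDCA (0.0223) and -2.77 ± 0.24 for the difference (9.39e-06). The UDCA call rested on single arrays: it was 0.49 without array 1 (0.0944), 0.50 without array 4 (0.0839) and 0.57 without array 5 (0.054). The knockout spot of UDCA array 4 was saturated, which caps that ratio. Without CA arrays 3 and 4 the CA change was -1.86 and the difference -2.44, both called. Genes lower with CA and higher with UDCA, as Vsig4 and Cd5l were, made up 0.41% of all genes.

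Marco, a class A scavenger receptor that binds bacteria and particles, was lower under both diets. With CA its ratios were -2.83 at the lowest, -2.26 at the median and -1.96 at the highest. With UDCA they were -1.52, -0.52 and -0.10. All 12 arrays were below 0, and every CA array lay below every UDCA array. Being lower on all 6 arrays of a diet held for 15.2% of genes with CA and 9.42% with UDCA. These ratios still hold the dye effect, and with it removed UDCA array 4 was at 0.05. The fall was 2.29 ± 0.16 log2 units with CA (limma, adjusted p = 1.25e-08), and the UDCA change was -0.67 ± 0.16 (0.00512). The difference was -1.62 ± 0.22 (0.000157). The CA change was -2.30 without CA arrays 3 and 4, and Marco had the smallest spread of the members on the CA arrays, with an SD of 0.29.

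Cd163, the receptor that takes up haptoglobin-bound haemoglobin, was lower under both diets. Its CA ratios were -3.29 at the lowest, -1.87 at the median and -1.10 at the highest, and its UDCA ratios were -2.61, -1.57 and -0.95. All 12 arrays were below 0 and the diets overlapped across most of their range. CA arrays 3 and 4 were at -1.47 and -1.13, above CA arrays 1, 2 and 5, and the CA call was kept without them. The fitted change was -2.003 ± 0.27 with CA (limma, adjusted p = 1.61e-05) and -1.61 ± 0.27 with UDCA (0.000494). The difference was -0.40 ± 0.39 (0.477), with a 95% interval from -1.22 to 0.43, which does not show that the diets act alike. Genes lower under both diets made up 6.79% of all genes.

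The size of the Cd163 fall is less sure than its direction. Its knockout spot was well above background on 5 of 6 CA arrays and on 4 of 6 UDCA arrays, whereas wild type was so on all 12. With the signals that the scanner software had processed, the change was -4.21 with CA and -3.50 with UDCA, about 2.1 and 2.18 times as large on the log2 scale. The difference remained uncalled in all 27 alternatives, between -0.75 and -0.09.

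Timd4, a receptor for phosphatidylserine on dying cells that marks long-lived resident macrophages, changed least. Its CA ratios were -1.06 at the lowest, -0.64 at the median and 0.28 at the highest. Its UDCA ratios were -0.35, -0.13 and 0.23. CA array 6 was the 1 CA array above 0, and its wild-type spot was not well above background. The diets overlapped. The CA change was -0.52 ± 0.15 (limma, adjusted p = 0.00637), and without CA arrays 3 and 4 it was -0.40 and lost its call (0.075). With the processed signals of the scanner software it was -0.93 (0.0356). The UDCA change was -0.09 ± 0.15 (0.714), with a 95% interval from -0.40 to 0.22. The difference was -0.43 ± 0.21 (0.136), and without CA array 6 it was -0.58 and called (0.0307). Under median centring in place of loess it was -0.82 (0.25) and with the processed signals -0.70 (0.324), neither called. Timd4 was dim, with wild type well above background on 5 of 6 arrays of each diet, so small changes were hard to detect.

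**Figure D2:**
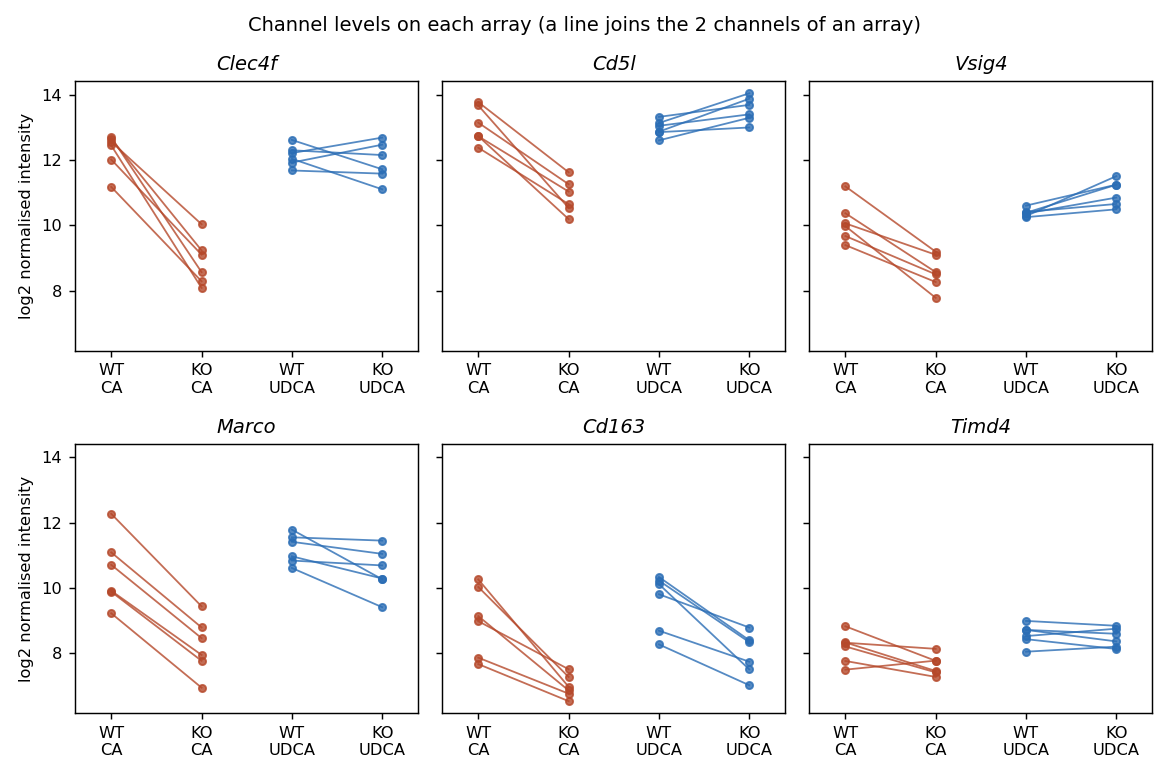
Normalised log2 intensity of each member in the wild-type (WT) and knockout (KO) channel, with a line joining the 2 channels of each array, for the arrays of CA-fed (orange) and UDCA-fed (blue) knockout livers. For Clec4f, Cd5l and Vsig4 the knockout levels of the CA arrays lie below all knockout levels of the UDCA arrays, while the wild-type levels of the 2 sets overlap.

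Taking the diets apart by the difference itself, 4 of 6 members (Clec4f, Cd5l, Vsig4 and Marco) were lower with CA than with UDCA, against 8.88% of all genes, with 18.8% higher. For the same 4 every CA ratio lay below every UDCA ratio, which held for 3.13% of genes. Slides 3 and 4 carried arrays of both diets. On slide 3, with 1 CA and 2 UDCA arrays, the difference with dye removed was -3.42 for Clec4f, -2.95 for Cd5l, -2.65 for Vsig4 and -2.19 for Marco. On slide 4, with 1 CA and 3 UDCA arrays, it was -2.67, -2.36, -1.38 and -1.30. Cd163 differed by -1.54 and -0.09 on these slides and Timd4 by -1.02 and 0.29, so neither kept a size between them. The other CA arrays shared no slide with a UDCA array.

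The order of the members changed with the diet. With CA, Clec4f was lower than each other member on all 6 arrays, and Timd4 was higher than each other member on all 6. Between Cd5l, Cd163 and Marco no order could be read, since their mean ratios differed by 0.10 to 0.28 against SDs of 0.58 to 1.20, nor between Vsig4 and Cd163 (0.46, SD 1.10). With UDCA, Cd163 was lower than each of the other 5 on all 6 arrays, by 0.94 (Marco) to 2.22 (Vsig4). Cd5l and Vsig4 differed by 0.04 and had no order, Clec4f and Timd4 differed by 0.09, and Marco changed place with either of the latter from array to array. In each diet 11 of 15 pairs kept 1 order on all 6 arrays, which gives p = 0.03125 in an exact two-sided sign-flip permutation test and 0.0426 after Benjamini-Hochberg adjustment over 30 pairs. This is the smallest p that 6 arrays allow, and 5 livers could not go below 0.0625.

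Within a diet the arrays that were low for 1 member were low for some of the others. Deviations from the diet's mean, with the dye effect removed, had a Pearson r over the 12 arrays of 0.94 between Clec4f and Cd5l, 0.81 between Clec4f and Vsig4 and 0.83 between Cd5l and Vsig4. Cd163 did not go with these 3, at -0.17 to -0.13, and its closest member was Marco at 0.55. Timd4 was closest to Vsig4 at 0.72. The points share arrays, RNA extracts and in part livers and slides, and CA arrays 3 and 4 were the lowest for Clec4f, so these values are a description.

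**Figure D3:**
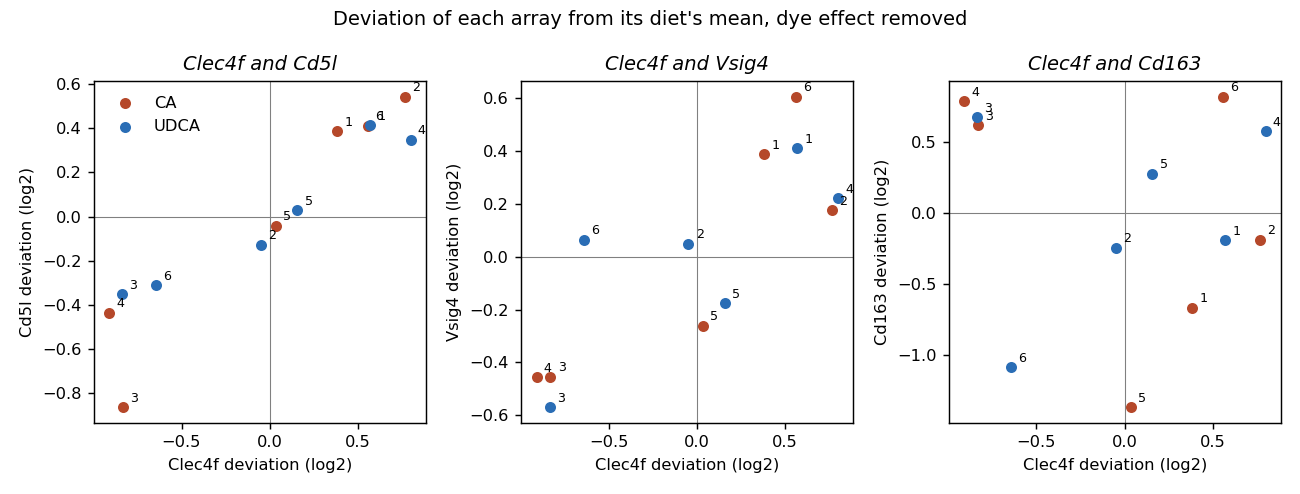
Deviation of each array's log2 ratio from the mean of its diet, with the dye effect removed, for Clec4f against Cd5l, Vsig4 and Cd163; points are the 12 arrays, numbered within their diet. Clec4f and Cd5l lie along a rising line (r = 0.94), while Clec4f and Cd163 do not (r = -0.13).

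Of 9982 genes compared by the same measure, the 5 whose deviations were most like the members' mean were Vars2, a mitochondrial valyl-tRNA synthetase (r = 0.92), Pgap6 (0.92), Ticam1, the adaptor TRIF of Toll-like receptors (0.91), Vps52 (0.91) and Cyp4b1, a cytochrome P450 (0.91). The 5 whose ratios lay nearest to the members' mean on the 12 arrays were Slc23a1, a vitamin C transporter, with a root mean square distance of 0.36, Ero1b (0.37), Elovl6, a fatty acid elongase (0.37), Shpk (0.38) and Pbld1 (0.39). These 10 were picked for their likeness and their values are no test of it.

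With CA 22.4% of all genes were called lower and 37.8% higher. Among 14 other genes of Kupffer cells that were measured, 6 fell and 5 rose with CA, with a median of -0.20. With median centring in place of loess 1 fell, Clec1b, and 4 rose. Those that fell under loess include Fcna, a plasma ficolin made by macrophages (-1.39 ± 0.17, limma, adjusted p = 4.30e-06), Clec1b, the lectin CLEC-2 (-1.29 ± 0.15, 2.46e-06), Hpgd, the enzyme that breaks down prostaglandins (-1.21 ± 0.11, 2.64e-07), and Folr2, folate receptor beta (-1.05 ± 0.13, 5.18e-06). Under median centring Fcna was at -1.12 (adjusted p = 0.0539), Hpgd at -0.88 (0.0752) and Folr2 at -0.86 (0.0706), none called. Vcam1, an adhesion molecule that endothelium also expresses, rose by 3.92 ± 0.15 on 5 arrays (4.48e-10). With UDCA 3 of the 14 rose and none was called lower, with a median of 0.12, where 17.2% of all genes rose and 8.78% fell. Fcna was at -0.46 ± 0.17 (0.0575), below 0 on all 6 UDCA arrays, and was called lower in some alternatives, for example at -0.69 with the processed signals of the scanner software (0.0244) and at -0.55 in the deposited series table (0.017). The diets differed in 10 of the 14, with 6 lower and 4 higher with CA, where 8.88% of all genes were lower and 18.8% higher. Under median centring they differed in 2 of the 14, 1 in each direction. Clec1b ran from -2.30 to -0.44 on CA arrays and from -0.39 to 0.47 on UDCA arrays, and Folr2 from -1.68 to -0.25 and from -0.24 to 0.61, without overlap in either. Fcna ran from -2.21 to -0.78 and from -0.67 to -0.06.

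Genes of macrophages in general went the other way. Of 16 measured, 14 rose with CA, with a median of 1.88, and 11 rose with UDCA, with a median of 0.74. Among all genes 37.8% rose with CA and 17.2% with UDCA. Adgre1, which encodes F4/80, rose by 2.61 ± 0.13 with CA (limma, 5 arrays, adjusted p = 2.31e-09) and by 1.15 ± 0.12 with UDCA (1.01e-05). Csf1r, the receptor for the growth factor CSF1, rose by 1.65 ± 0.21 with CA (8.07e-06) and was at 0.51 ± 0.21 with UDCA (0.097). In some alternatives Csf1r was called higher with UDCA, for example at 0.52 in the deposited series table (0.0197) and 0.64 with array weights (0.00151). Mertk, a receptor for the uptake of dying cells that was chosen after its value was seen, was the 1 gene of the 16 that fell, by 0.62 ± 0.09 with CA (3.32e-05) and by 0.40 ± 0.09 with UDCA (0.0045). With the slide as a fixed block its UDCA call was lost (0.0535), and under median centring both were, at -0.45 (0.225) and -0.07 (0.907).

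Of 12 measured genes of recruited macrophages, 11 rose with each diet, with medians of 2.69 and 1.62, against 37.8% and 17.2% of all genes. Ccr2, the chemokine receptor of monocytes, ran from 2.71 to 5.22 on the CA arrays and from 0.50 to 2.99 on the UDCA arrays. It rose by 4.15 ± 0.29 with CA (limma, adjusted p = 1.56e-08) and by 1.46 ± 0.29 with UDCA (0.00163). Trem2, a lipid receptor of macrophages in injured tissue, rose by 3.71 ± 0.22 (3.68e-09) and by 2.96 ± 0.22 (2.23e-07). Clec7a, the beta-glucan receptor dectin-1, rose by 4.31 ± 0.15 with CA (2.20e-10), and Cd14, the co-receptor for lipopolysaccharide, by 3.73 ± 0.19 (8.99e-10). The sum of log2 intensities of the 12 genes was 113.1 to 144.4 in CA knockout livers against 92.4 to 110.5 in their wild type, and 125.6 to 134.7 against 104.9 to 114.7 on the UDCA arrays. A flagged spot added nothing to these sums, so their low ends can come from missing spots. The part of these cells in the members' values was not tested.

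**Figure D4:**
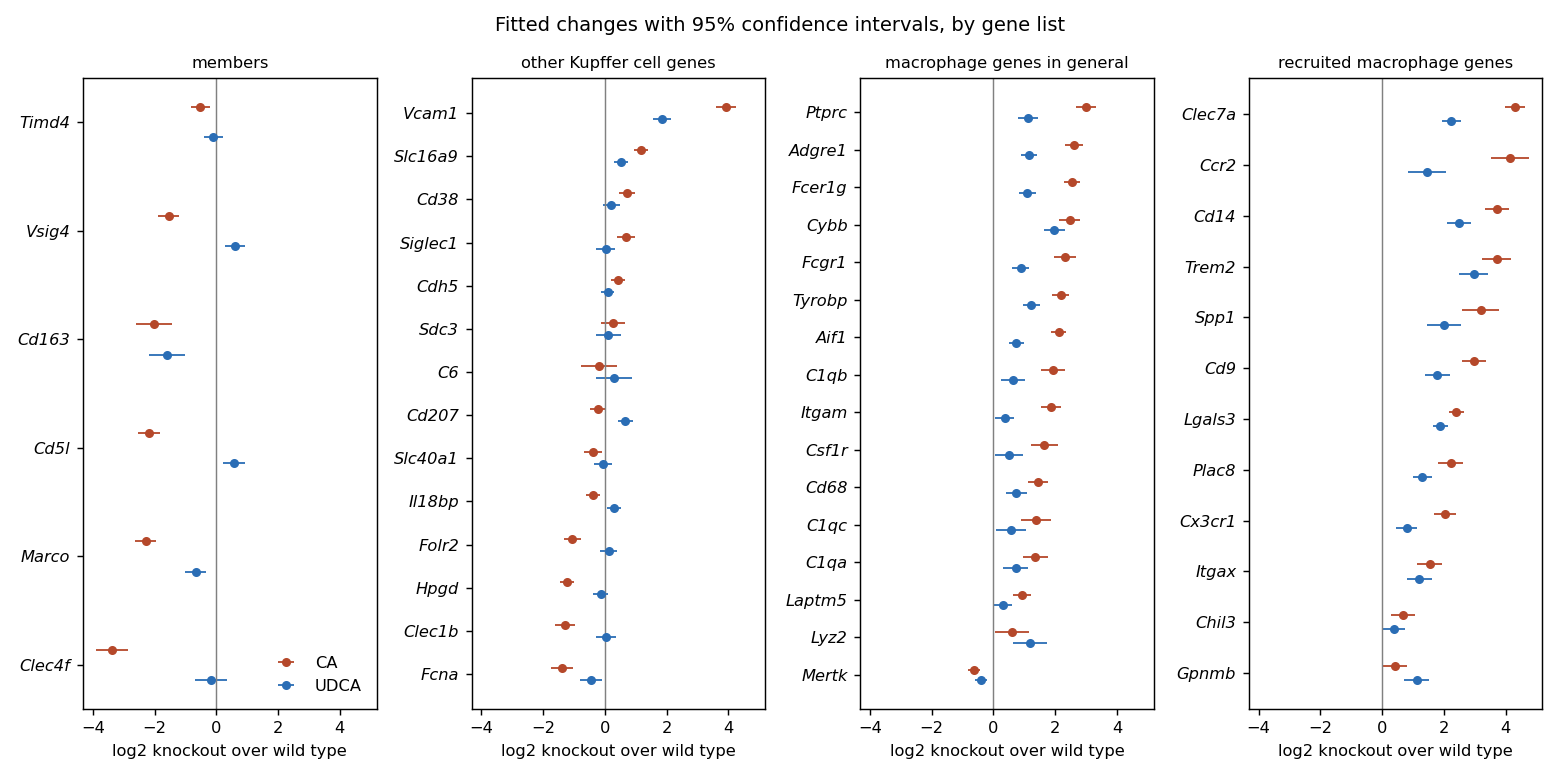
Fitted log2 change of knockout against wild type with its 95% confidence interval, with CA (orange) and UDCA (blue), for the 6 members, 14 other Kupffer cell genes, 16 genes of macrophages in general and 12 genes of recruited macrophages. All 6 members lie below 0 with CA, while 15 of 16 macrophage genes and all 12 genes of recruited macrophages lie above it.

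Transcription factors tied to Kupffer cells were read next. Of 11 measured, 6 rose and 1 fell with CA, with a median of 0.47, where 37.8% of all genes rose and 22.4% fell. Nr1h3 was the 1 that fell, by 0.46 ± 0.18 (limma, adjusted p = 0.0348), and this rested on single arrays: its lowest ratio was -1.82 and its median -0.10. The call was lost without CA array 1 (0.0725), 3 (0.176), 4 (0.0701) or 6 (0.0638), and the change was -0.24 without array 3 and -0.20 without arrays 3 and 4, and -0.29 under median centring (0.725). Spic was at -0.20 ± 0.14 (0.231) and Id3 at -0.14 ± 0.14 (0.392) with CA, neither called. Both are called lower with CA in the deposited series table, at -0.34 (0.0125) and -0.36 (0.0244), and with the slide as a fixed block Id3 is at -0.52 (0.00622). The difference between the diets was not called for Nr1h3 (-0.41, 0.242) or Id3 (-0.29, 0.333), but with the slide as a fixed block it was called for both, at -0.94 (0.0213) and -0.89 (0.0133). Rbpj, the factor of Notch signalling, rose by 1.24 ± 0.15 (4.24e-06) and Zeb2 by 1.92 ± 0.17 (1.67e-07). With UDCA 1 rose, Zeb2 (0.53 ± 0.17, 0.033), a call lost without UDCA array 3 (0.0954), 4 (0.0679) or 6 (0.13).

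Of 17 measured genes of the niche signals, 12 rose and 1 fell with CA, with a median of 0.66. Jag1, a Notch ligand, rose by 2.73 ± 0.12 (limma, adjusted p = 5.60e-10) and Csf1, the growth factor of macrophages, by 1.78 ± 0.19 (1.41e-06). Gdf2, which encodes BMP9, was the 1 that fell (-0.41 ± 0.10, 0.0033), and its call was lost with the slide as a fixed block (0.0651) and under median centring (-0.05, 0.934). With UDCA 4 rose and 1 fell, where 17.2% of all genes rose and 8.78% fell. Among 8 measured targets of LXR, 4 rose and 2 fell with CA, where 37.8% of all genes rose and 22.4% fell. Their mean ratio moved with the dye, at 0.65 to 0.71 on UDCA arrays with the knockout in Cy5 and -0.13 to 0.09 in Cy3. On CA arrays it was 0.71 to 0.77 and 0.23 to 0.50, and the named genes below are given for CA. Arl4c rose by 2.89 ± 0.13 (6.03e-10) and Abcg1, a sterol exporter, by 1.80 ± 0.11 (6.64e-09), whereas Lpcat3 (-0.75 ± 0.19, 0.00315) and Pltp (-0.68 ± 0.18, 0.00389) fell. Without CA arrays 3 and 4, Pltp was at -0.39 and lost its call (0.079). Under median centring neither was called, with Lpcat3 at -0.51 (0.484) and Pltp at -0.58 (0.238).

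Genes that share a function with a member were also read. Of 13 genes for handling haemoglobin and iron, the task of Cd163, 1 rose and 1 fell with CA and 3 rose with UDCA. Among all genes 37.8% rose and 22.4% fell with CA, and 17.2% rose with UDCA. Slc11a1, the phagosomal metal transporter, rose with both (1.45 ± 0.12, limma, adjusted p = 8.21e-08, and 0.56 ± 0.12, 0.00289), and under median centring its UDCA value was 0.96 and not called (0.0956). Slc40a1, the iron exporter ferroportin, fell with CA (-0.38 ± 0.13, 0.0238), a call lost without CA array 1 (0.073), 3 (0.11) or 4 (0.0734), and at -0.19 without arrays 3 and 4. Under median centring it was at -0.32 (0.665). With UDCA, Slc48a1, a haem transporter, rose by 1.24 ± 0.18 (0.000106) and Hmox1, which degrades haem, by 0.53 ± 0.15 (0.0174). The Hmox1 call was lost without UDCA array 1 (0.0607), 3 (0.0576) or 4 (0.0847) and under median centring (0.97, 0.21). The mean ratio of these 13 genes turned with the dye, at 0.81 to 1.22 on CA arrays with the knockout in Cy5 and -0.97 to -0.71 with it in Cy3. Cd163 in the same UDCA livers was at -1.61.

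Among all genes 37.8% rose and 22.4% fell with CA. Of 9 other scavenger receptors, 6 rose and 1 fell with CA, with a median of 0.71, where Marco was at -2.29. Msr1, the macrophage scavenger receptor A, rose by 1.11 ± 0.12 (limma, adjusted p = 1.09e-06), and Cd36, a receptor for fatty acids and oxidised lipoprotein, by 1.49 ± 0.17 with CA (3.60e-06) and by 3.06 ± 0.17 with UDCA (3.17e-08). Scarf1 was the 1 that fell (-0.42 ± 0.10, 0.00162), and under median centring it was at -0.10 and not called (0.861). Of 11 genes for the uptake of dying cells, 8 rose and 3 fell with CA. Axl rose by 2.13 ± 0.15 (2.52e-08) where Timd4 was at -0.52, while Mertk was at -0.62 and the lowest of the 11 at -1.13. Of 8 genes of complement receptors and their partners, 4 rose and 2 fell with CA, where 37.8% of all genes rose and 22.4% fell. Their mean ratio turned with the dye, at 0.60 to 1.005 on UDCA arrays with the knockout in Cy5 and -0.56 to 0.40 in Cy3. On CA arrays it was 1.07 to 1.19 and -0.14 to 0.17. Itgam and Itgax, which form the complement receptors CR3 and CR4 with a shared chain, rose by 1.85 ± 0.15 (8.12e-08) and 1.54 ± 0.19 (6.84e-06), where Vsig4 was at -1.54.

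Markers of other liver cells moved beside the members. Among all genes 37.8% rose and 22.4% fell with CA, and 17.2% rose and 8.78% fell with UDCA. Of 8 genes of sinusoidal endothelium 4 fell and 1 rose with CA, with a median of -0.35, and 2 fell with UDCA. Dnase1l3 fell by 1.32 ± 0.13 with CA (limma, adjusted p = 8.83e-07) and Oit3 by 0.97 ± 0.15 (5.46e-05). Under median centring none of the 8 was called with either diet, with a CA median of -0.04, and Dnase1l3 was at -0.87 (0.172) and Oit3 at -0.64 (0.166). The sum of their log2 intensities was 71.4 to 83.9 in CA knockout livers, 74.7 to 88.3 in their wild type and 83.9 to 87.2 over both channels of the UDCA arrays. A flagged spot added nothing to a sum, and Dnase1l3 had values on 5 CA arrays only. The low ends with CA can therefore come from missing spots. All 4 cholangiocyte markers rose under both diets, with medians of 3.16 and 1.33, and Sox9 among them rose by 3.69 ± 0.21 with CA (2.71e-09). Their summed log2 level was 34.6 to 51.7 in CA knockout livers against 25.1 to 40.9 in wild type, again with nothing added for a flagged spot. All 4 markers of stellate cells and fibroblasts rose with CA and 3 rose with UDCA, with medians of 1.94 and 1.42. Their summed log2 level was 44.2 to 47.1 in CA knockout livers against 36.8 to 40.4 in wild type, and 43.4 to 45.3 against 37.0 to 38.7 with UDCA. Of 7 neutrophil genes listed 2 were measured. Both rose with CA and 1 with UDCA, with medians of 1.40 and 0.92. Of 6 hepatocyte markers, which check the tissue as liver, 1 fell with each diet and 5 were not called, with medians of -0.26 and -0.32. These values average dye orientations that went opposite ways: the mean ratio of the 6 genes was 1.16 to 1.55 on CA arrays with the knockout in Cy5 and -2.24 to -1.73 with it in Cy3, and 0.99 to 1.74 and -2.66 to -0.52 on UDCA arrays. Of 12 pancreatic genes listed, 4 were measured, and all 4 fell with CA and none was called with UDCA. Intensities have no true zero, so no marker is given as absent. The part of these cells in the members' values was not tested.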

How the data were processed

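The members and the gene lists were chosen with earlier results of these data known. Total RNA of 12 two-colour hybridisations to a whole mouse genome array was analysed. The spot intensities were deposited as scanner output of Feature Extraction 9.5.3, per the file headers, without normalisation between arrays; in its processed intensities, the alternative here, the same software had subtracted background and normalised the dyes. The deposited series table holds log2 ratios; its rows were matched to spots by row order, and its CA columns had to be turned, since they ran as wild type over knockout against the spot intensities. How it was centred is unknown.

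In R 4.3.3 with limma 3.58.1, background was corrected by normexp (offset 50), dyes were normalised by loess within each array with control spots at weight 0, flagged spots were set missing (2399 values, 0.921%), and spots were averaged per probe. Channel levels are the loess-normalised intensities after the arrays' average intensities were quantile normalised (Aquantile). In every sum of these levels a flagged spot added nothing, so a sum can be low because a spot was missing. Tested probes were those well above background on 5 or more of the 6 arrays of a diet, in the knockout or the wild-type channel (21697 probes, of which the brightest stood for each of 15381 genes). One linear model held both diet effects and a dye effect, with a moderated limma test and Benjamini-Hochberg adjustment over all tested probes at 0.05. The test was run on simulated data. Named genes are the 6 members, up to 4 called genes with the largest change per list and comparison, 7 genes named whatever their value, and 10 genes nearest to the members; Mertk, Gdf2, Pltp and Scarf1 fall outside this rule and were named after their values were seen. One listed gene is not reported here. Gene names followed RefSeq through the accession for 10909 of the tested names. Alternatives changed the background, normalisation, filter, dye term, slide, weights and arrays. No pairing by array number was seen: deviations of same-numbered arrays correlated at -0.57 to 0.13. These values cannot exclude a pairing, and the labels do not state one. The number of arrays limits the precision, and no count depth applies.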

Additional observations from a re-analysis of the deposited data

Results flagged for a closer look

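The changes under CA and UDCA differed for 39 of the 54 genes named here, by the limma test of the difference with adjustment over all probes. Many of the 54 were named because they were called, some in this same difference, and others for their likeness to the members. The count is therefore no test of how often the diets differ. Over all genes 8.88% were called lower and 18.8% higher with CA than with UDCA. With median centring in place of loess 24 of the 39 lost their call and 15 kept it. Among the members the difference, CA minus UDCA on the log2 scale, was Clec4f (-3.19), Cd5l (-2.77), Vsig4 (-2.16) and Marco (-1.62). Of the other genes, those with a higher value under CA were Csf1r (1.14), Adgre1 (1.46), Ccr2 (2.69), Vcam1 (2.08), Clec7a (2.07), Cd14 (1.23), Rbpj (1.20), Zeb2 (1.39), Jag1 (2.21), Csf1 (1.12), Arl4c (1.64), Abcg1 (1.03), Slc11a1 (0.89), Msr1 (0.58), Axl (1.61), Itgam (1.49) and Sox9 (2.43). Those with a lower value under CA were Fcna (-0.93), Clec1b (-1.33), Hpgd (-1.08), Folr2 (-1.17), Gdf2 (-0.42), Slc48a1 (-0.98), Dnase1l3 (-0.88), Oit3 (-0.72), Cd36 (-1.57) and Amy2 (-1.58). Genes named for their likeness to the members also differed, namely Vars2 (-0.58), Pgap6 (-0.57), Cyp4b1 (-1.05), Slc23a1 (-1.15), Ero1b (-1.22), Elovl6 (-1.64), Shpk (-1.19) and Pbld1 (-1.48).

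A single array lay far from the others of its diet for Adgre1 on UDCA array 5 (0.47, nearest 1.17), Jag1 on UDCA array 3 (1.23, nearest 0.49), Csf1 on CA array 4 (0.26, nearest 1.80), Pltp on UDCA array 6 (-1.24, nearest -0.28), Slc40a1 on UDCA array 2 (0.18, nearest -0.08), Scarf1 on CA array 6 (-0.024, nearest -0.41) and Ticam1 on UDCA array 6 (-0.63, nearest -0.14). These are 7 of 108 groups of arrays looked at, and chance marks about 1 in 20. No member was among them.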

How the results depend on the processing

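Across 27 alternatives the CA changes of Clec4f, Cd5l, Vsig4, Cd163 and Marco kept their direction and their call in each. The count of members lower with CA was 6 in each, except 5 without CA arrays 3 and 4; leaving out 1 array in turn gave 6 to 6 with CA, 2 to 2 lower with UDCA and 4 to 5 differing between the diets. With median centring in place of loess 1 member was lower with UDCA (Cd163) in place of 2, and Marco was at -0.30 (adjusted p = 0.697), Cd5l at 0.93 (0.292) and Vsig4 at 1.07 (0.0972), none called; the difference of Marco was -1.86 and not called (0.0835), and that of the other 3 kept its call. The median of all probes was then 0.23 with CA and 0.29 with UDCA, against 0.05 and 0.03. Relative to that shift Marco stayed below it and Cd5l and Vsig4 above it.

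Under the same centring 6142, 1976 and 817 probes were called with CA, with UDCA and between the diets, against 12923, 5093 and 5845, and array weights called 8286 with UDCA. Of the genes named here it ended 13 of 47 calls with CA, 16 of 30 with UDCA and 24 of 39 between the diets. Dnase1l3 (0.0029) and Scarf1 (0.10) with UDCA lay above 0 under median centring, neither called. Calls lost with the slide as a fixed block include the differences of Csf1r (0.65, adjusted p = 0.236), Csf1 (0.93, 0.0604), Dnase1l3 (-0.57, 0.135), Oit3 (-0.29, 0.466), Msr1 (0.49, 0.11) and Pgap6 (-0.49, 0.0823). The cause was not tested. The number in the array titles as a replicate block left 4 members differing, Clec4f at -3.19 (adjusted p = 0.000231), and called 4721 probes; it ended the call of Gdf2 (0.0848) and of no other gene named here. The normexp offset of 10, the set without CA arrays 3 and 4 and the counts of gene lists under median centring were chosen after seeing the data. Signal over background limits Cd163 and Timd4 most.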
